A study of Mus musculus with 64 samples.

Results

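The heme synthesis enzymes described here are the 8 genes Alas1, Alas2, Alad, Uros, Urod, Cpox, Ppox and Fech, selected by gene symbol from the 23338 genes counted in each library, and all 8 were found. They were chosen with their levels across stages and by gender in adult liver already known, so those values are given as a description without a test. Of these, 7 are autosomal and Alas2 lies on the X chromosome.

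Heme is built in a linear pathway that starts and ends in the mitochondrion. Aminolevulinate synthase makes the first intermediate from glycine and succinyl-CoA, cytosolic enzymes assemble the ring, and Cpox, Ppox and Fech complete it, Fech by inserting the iron. The first step has separate genes for different tissues: Alas2 serves developing red blood cells and Alas1 serves other cells, the liver above all, where heme goes mainly into cytochromes P450. Before birth the mouse liver is also the main site of red blood cell production.

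RNA-seq was made from 64 samples of C57BL/6 mice (C57BL/6 J in the study's methods), male and female, with no treatment or engineered allele. There were 12 single 8 cell embryos (6 male, 6 female), 4 embryonic stem (ES) cell lines grown in 2i medium, which holds them in ground-state pluripotency (2 male, 2 female), 24 late-gestation fetal livers and 24 adult livers (12 male, 12 female each). Each ES library is 1 line, and the embryo libraries used an amplified single-cell protocol while the others used a stranded total RNA kit, so level differences between embryos and the other stages cannot be told apart from the protocol. The labels tie no liver to a litter, so p-values measure the spread between these samples.

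Reads on genes ranged from 1567583 to 4757610 in adult liver, from 5145371 to 8499603 in fetal liver, from 4659656 to 7725432 in embryos and from 9857929 to 10386931 in ES lines. Levels are given in CPM, counts per 1000000 reads on genes, scaled by the trimmed mean of M values. Of the 12 hepatocyte markers, all 12 averaged over 1 CPM in both livers. Of the 15 erythroid markers counted, 11 averaged over 1 CPM in fetal liver of both genders, while the remaining 4, the globin genes Hba-a1, Hba-a2, Hbb-b1 and Hbb-b2, had at most 5 reads in any library. These 4 have near-identical copies, and reads that align to more than 1 place were not counted. Whether this or the gene annotation lowered their counts was not tested.

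To show what lies before these genes, 3 upstream sequences are printed, for the erythroid Alas2, for Cpox and for Ppox, all well above adult level in fetal liver. GATAA, or TTATC on the other strand, the core letters bound by GATA factors of the red cell lineage, was searched in the 250 bases before each RefSeq start (GRCm38.p6). Capitals mark a match, and each run stops before the first exon annotated in GENCODE M21.
Alas2, chrX:150547167-150547374, + strand: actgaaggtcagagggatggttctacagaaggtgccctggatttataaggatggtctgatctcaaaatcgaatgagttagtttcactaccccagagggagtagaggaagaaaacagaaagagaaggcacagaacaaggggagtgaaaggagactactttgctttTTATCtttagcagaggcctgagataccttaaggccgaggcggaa
Cpox, chr16:58669958-58670207, + strand: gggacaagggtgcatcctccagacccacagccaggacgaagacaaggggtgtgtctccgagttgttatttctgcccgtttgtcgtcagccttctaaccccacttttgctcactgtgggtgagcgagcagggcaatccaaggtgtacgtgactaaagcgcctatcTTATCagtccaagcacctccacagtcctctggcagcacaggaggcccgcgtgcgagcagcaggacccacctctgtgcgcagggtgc
Ppox, chr1:171281187-171281436, - strand: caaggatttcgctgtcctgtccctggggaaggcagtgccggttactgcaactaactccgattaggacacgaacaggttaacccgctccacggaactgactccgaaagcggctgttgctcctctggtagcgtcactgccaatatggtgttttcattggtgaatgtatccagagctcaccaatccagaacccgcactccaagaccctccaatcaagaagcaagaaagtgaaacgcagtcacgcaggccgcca

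The match began 86 bases before the RefSeq start in both Alas2 and Cpox, and 68 bases before the downstream start of Uros, which has 2 starts. Of the 10 member promoters, for 7 of the 8 genes, 3 held the letters, against 22.6% of all 32851 promoters of the same length. A GC-rich motif, CCNCNCCC on either strand, was found in 6 of the 10, among them Alas2 with 4 matches, some of them overlapping, between 42 and 26 bases before its start and so past the end of the printed run, against 45.9% of all promoters. These matches describe the letters in the windows only.

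Alas2 was the member with the widest range across stages. It lies on chromosome X (chrX:150547375-150570638, + strand, GENCODE M21). In fetal liver the lowest library had 877 CPM, the median 1115 CPM and the highest 1436 CPM (mean 1134 ± 147, SD, n = 24). No ES line had a read, and 9 of the 12 embryos had none, the highest of the others holding 5 reads. Against a floor of 3 reads in an ES library, 0.236 CPM, the fetal mean was at least 4813-fold higher. This floor covers counting error only.

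Adult liver kept measurable Alas2, and the genders were far apart. The 12 adult males ran from 184 CPM over a median of 208 CPM to 242 CPM, while the 12 adult females ran from 13.3 CPM over 30.9 CPM to 50.6 CPM. The lowest male therefore stood above the highest female, and the males varied less among themselves (coefficient of variation 8.87% against 31.1%). Female libraries held 24 to 110 Alas2 reads and male libraries 266 to 774, so counting error was larger in females. Its part in the spread was not tested. Fetal mean CPM was 5.01 times the adult mean in males and 40.3 times in females. Fetal and adult ranges did not overlap. The share of all genes with ranges that do not overlap, between stages or genders, is not given here. In bulk samples, fewer cells of a type and less RNA per cell cannot be told apart.

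Alas1, the housekeeping synthase (chr9:106233455-106248654, - strand), ran the other way. Its mean was 53.6 ± 4.51 CPM in fetal liver (SD, n = 24) and 504 ± 213 CPM in adult liver (SD, n = 24), 9.39 times as high, with no overlap of the ranges. The 4 ES lines were at 21.1, 25.3, 24.4 and 24.7 CPM, lower than every fetal liver. Embryos ran from 37.4 to 86.2 CPM around a median of 64.3 CPM, a range that overlapped that of fetal liver.

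Per kilobase of exon, which allows levels of the synthases to be set side by side, Alas2 made up 97.6% ± 0.387 of the summed Alas1 and Alas2 level in fetal liver (SD, n = 24), between 96.8% and 98.2% in every library. In adult males its share was 45.6% ± 12.9 (SD, n = 12), from 29.5% to 73.2%. In adult females it was 13.3% ± 8.35 (SD, n = 12), from 4.17% to 36.0%. The adult ranges overlapped here because Alas1 itself varied widely between livers. Exon lengths here are merged exons of the GENCODE M21 basic set, 3959 bases for Alas1 and 2037 for Alas2. The full set gives 6174 and 2403 bases, so the shares depend on this choice.

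**Figure D1:**
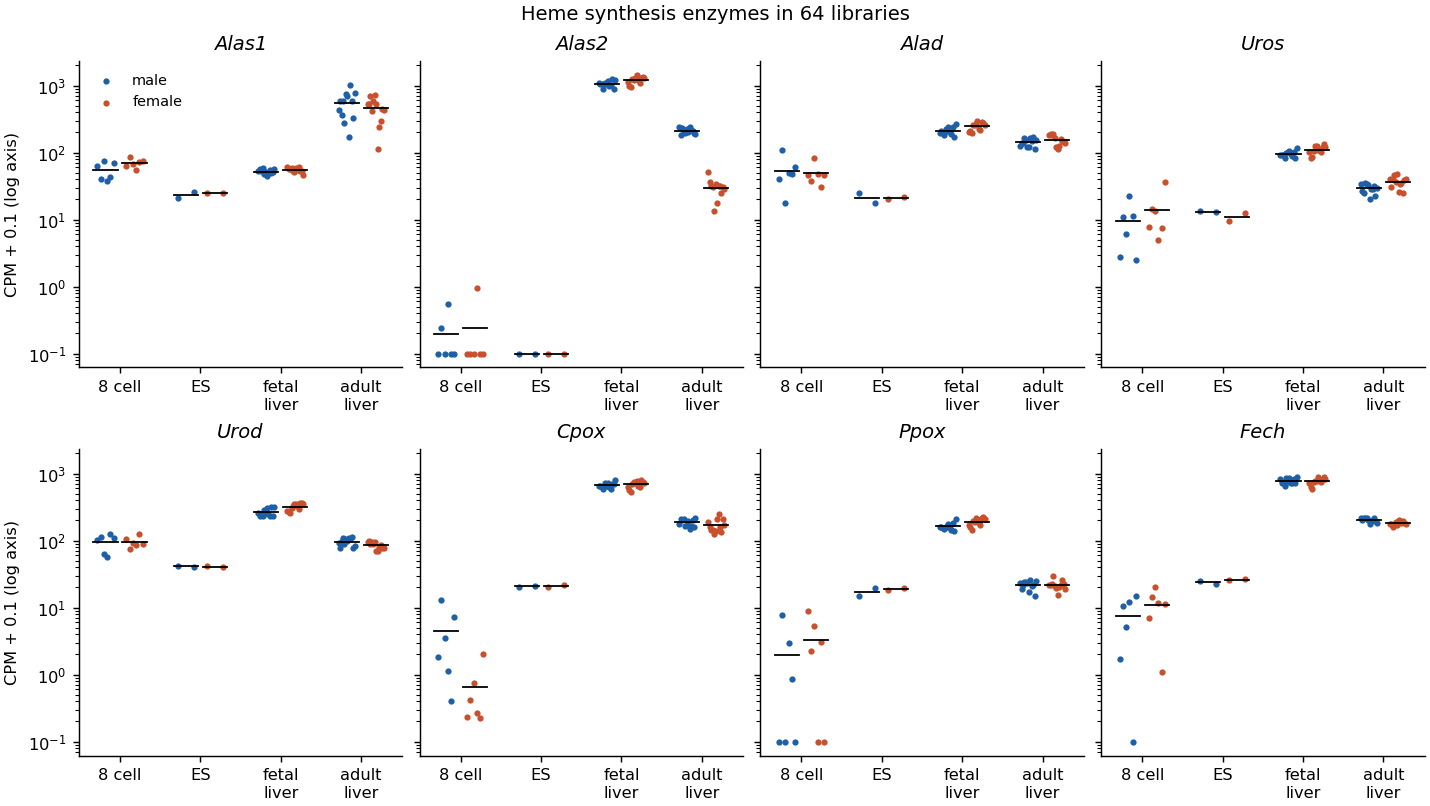
Level of each of the 8 enzymes in every library (CPM plus 0.1, log axis) by stage, males in blue and females in orange, with a black line at each group's mean. Alas2 was at 0 in the 4 ES lines and highest in fetal liver, and in its panel the adult males (184 to 242 CPM) and adult females (13.3 to 50.6 CPM) form separate groups. Alas1 is the member with its highest level in adult liver.

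The enzymes after the first step were each highest in fetal liver. Fech (chromosome 18), which inserts the iron, averaged 775 ± 81.3 CPM there and 193 ± 17.3 CPM in adult liver (SD, n = 24 each), 4.01 times as high before birth. Cpox (chr16:58670292-58717636), which makes protoporphyrinogen from coproporphyrinogen, averaged 680 ± 72.1 CPM against 178 ± 31.8 CPM, 3.82 times as high. In neither gene did the 2 livers overlap.

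Ppox (chr1:171275990-171281186), the next enzyme, had 177 ± 26.8 CPM in fetal and 21.7 ± 3.36 CPM in adult liver (SD, n = 24 each), an 8.20-fold difference. In males its gap, 7.55 times, was wider than the 5.01 times of Alas2, and in females, at 8.84 times, narrower than the 40.3 times of Alas2. Its adult range of 15.1 to 29.8 CPM overlapped the ES lines, at 14.9, 19.6, 17.9 and 19.7 CPM. Adult liver thus carried Ppox at about the ES level, while Fech and Cpox were 7.79 and 8.63 times their ES means there.

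Among the cytosolic steps, Urod (chr4:116989965-116994413), which decarboxylates the ring, averaged 294 ± 46.0 CPM in fetal and 91.1 ± 12.4 CPM in adult liver (SD, n = 24 each), and Uros (chr7:133686243-133710072), which closes the ring, 103 ± 14.9 CPM and 32.8 ± 7.004 CPM (SD, n = 24 each). Both gaps were near 3-fold, at 3.22 and 3.14 times, without overlap. Alad (chr4:62509169-62519918), which joins 2 aminolevulinate molecules, differed least. Its mean was 228 ± 34.1 CPM in fetal and 149 ± 24.1 CPM in adult liver (SD, n = 24 each), and its ranges, 172 to 291 CPM and 113 to 192 CPM, overlapped.

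Embryos did not hold the pathway evenly. Urod ran from 56.0 to 126 CPM around a median of 97.4 CPM, overlapping adult liver, and Alad from 17.7 to 107 CPM around 47.4 CPM, overlapping the ES lines. In contrast, Cpox had a median of 0.827 CPM (0.124 to 12.7 CPM), Ppox of 1.48 CPM (0 to 8.89 CPM) and Fech of 10.8 CPM (0 to 20.1 CPM), each below every ES line. Uros, with a median of 9.13 CPM, overlapped the ES lines. Whether the amplified protocol detected these transcripts less well was not tested.

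The order of the enzymes per exon length changed between the livers. Basic-set lengths were 3097 bases for Cpox and 1821 for Ppox, where the full set gives 6661 and 4515. The order within a liver therefore depends on that choice. In fetal liver it ran from Alas2 (557 ± 72.2 CPM per kb) over Cpox (220 ± 23.3), Urod (197 ± 30.9), Alad (180 ± 26.8), Fech (108 ± 11.3), Ppox (97.5 ± 14.7) and Uros (43.2 ± 6.27) to Alas1 (13.5 ± 1.14; SD, n = 24 for each). From Cpox to Urod, from Urod to Alad and from Fech to Ppox the step was within 1 SD. In adult liver Alas1 and Alad stood first and within each other's spread, at 138 ± 61.2 and 112 ± 15.4 CPM per kb in males and 116 ± 45.2 and 121 ± 21.6 in females (SD, n = 12 each). Alas2 came next in males, at 104 ± 9.23 CPM per kb, but in females, at 14.7 ± 4.57, it stood near Uros (15.4 ± 2.93) and Ppox (11.9 ± 1.94), the lowest there (SD, n = 12 each).

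**Figure D2:**
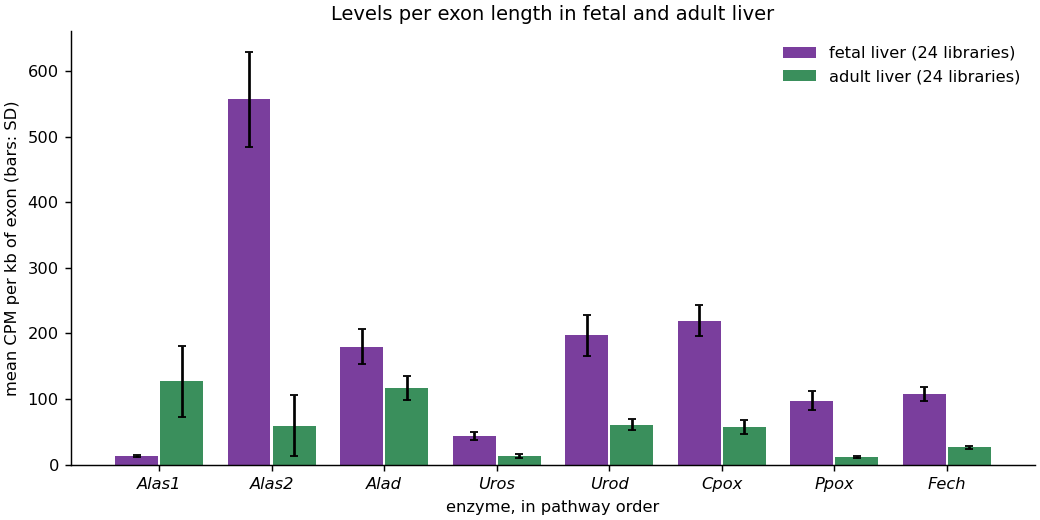
Mean CPM per kilobase of exon (GENCODE M21 basic set) of the 8 enzymes in 24 fetal (purple) and 24 adult (green) livers, with SD bars. Alas2 stood highest in fetal liver at 557 CPM per kb and Alas1 lowest at 13.5, while in adult liver, with the genders pooled, Alas1 was at 127.

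The fitted adult-to-fetal difference, with gender in the model, put these gaps on the log2 scale. The model fits 1 stage difference for both genders. For Alas2, with fetal means 5.01 times the adult in males and 40.3 times in females, that value describes neither gender. Alas1 was higher in adult liver by 3.34 (SE 0.154). The others were lower there, by log2 values of -3.56 (SE 0.255) for Alas2, -2.90 (SE 0.0611) for Ppox, -1.90 (SE 0.0453) for Fech, -1.82 (SE 0.0647) for Cpox, -1.57 (SE 0.0606) for Urod, -1.54 (SE 0.0624) for Uros and -0.51 (SE 0.0558) for Alad. All 8 members passed the study's thresholds (adjusted p under 0.1 and a log2 difference over 0.5), as did 67.2% of the 13026 genes tested (31.8% higher and 35.3% lower in adult liver), and the stages were part of how the genes were chosen, so nothing is read from the count. Without the 7 adult livers of lowest depth (3 male, 4 female) Alad was at -0.45 and 7 members passed. Scaling by library totals alone moved the median of all genes from -0.05 to -0.61 and the members with it, Alad to -1.07 and Alas1 to 2.77, with no change of direction.

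Of 16 mitochondrial carriers and iron-sulfur partners tested, 6 were higher and 5 lower in adult liver, shares near those of all genes (31.8% and 35.3%), with a median log2 of 0.14 beside -0.05 for all genes. Slc25a37, mitoferrin, which brings iron into the mitochondria of red cell precursors, averaged 1252 CPM in fetal and 35.3 CPM in adult liver (log2 -5.05, SE 0.0798). Its relative Slc25a28, the form of other tissues, averaged 13.8 and 22.1 CPM (log2 0.79, SE 0.0761).

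Heme breakdown, export and binding genes counted 4 higher and 6 lower of 11 in adult liver (median log2 -0.89). Among all genes tested the shares were 31.8% higher and 35.3% lower. Hpx, the plasma protein hemopexin that binds free heme, stood at 3722 CPM in adult against 598 CPM in fetal liver, and Hmox1, the inducible heme oxygenase, at 27.3 against 155 CPM. Of the 10 erythroid regulators, 9 were lower in adult liver and none higher (median -4.81), with Gata1 at 0.0167 against 79.3 CPM. Of 8 hepatic regulators of Alas1, 6 were higher and 2 lower (median 1.65), led by Nr1d1, a clock repressor, at 39.5 against 1.20 CPM. Nr1i3, a xenobiotic receptor, followed at 215 against 8.90 CPM. Nrf1 was among those lower, at 24.3 against 71.4 CPM. Ppargc1a averaged 9.55 CPM in adult against 20.5 CPM in fetal males, and 14.6 against 16.2 CPM in females. All 11 erythroid markers tested were lower in adult liver (median -11.32), as were all 6 megakaryocyte and all 8 neutrophil markers.

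Gender was compared first in adult liver, where the rule that set the members also looked, so the values carry no test. Alas2 was higher in males by 2.79 on the log2 scale (SE 0.113; mean 212 against 30.0 CPM, n = 12 each), 7.07 times as high. It passed the thresholds, as did 3.01% of 10372 genes in the male direction. None of the 7 autosomal members did, beside 9.49% of the genes in either direction, and their ranges overlapped between genders. Uros was at -0.35 (SE 0.0958; 29.0 CPM in males, 36.6 in females). Urod was at 0.15 (SE 0.0647; 96.7 and 85.5 CPM), Fech at 0.14 (SE 0.0511; 204 and 182 CPM) and Alad at -0.14 (SE 0.0738; 143 and 154 CPM). Alas1 was at 0.23, but with an SE of 0.276 its interval ran from -0.31 to 0.77. Cpox, at 0.11 (SE 0.103), and Ppox, at -0.02 (SE 0.087), lay nearer 0.

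The spread of Alas1 among adult livers was the largest of any autosomal member. Males ran from 172 CPM over a median of 580 CPM to 1014 CPM, and females from 111 over 487 to 715 CPM. Its coefficient of variation was 44.3% in males and 38.9% in females, against 6.62% to 22.02% for the other 6 autosomal members in either gender.

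Blood markers stood beside the adult Alas2 difference as follows, and their part in it was not tested. Slc4a1, Epb4.2, Ermap and Rhag, membrane proteins of red cell precursors, together had 0 to 6 reads in an adult male and 0 to 10 in an adult female, so these defining markers were at or near 0 in both. The erythroid markers summed to 56.7 to 152 CPM in adult males and 48.6 to 115 CPM in adult females, most of it Tfrc, the transferrin receptor, which other cells also express. Beta-s, an adult beta globin counted under its own symbol and chosen after its values were seen, ran from 101 to 244 CPM (median 148 CPM) in males and from 94.3 to 258 CPM (median 166 CPM) in females. Its counts are uncertain where it shares sequence with other beta globins. Of the 2 erythroid markers with enough adult reads for the fit, Tspan33, a tetraspanin, was past the thresholds, at 18.1 CPM in males and 10.6 CPM in females (log2 0.72, SE 0.168).

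Set against Beta-s in the same library, Alas2 stood at 0.719 ± 0.0489 in fetal males and 0.739 ± 0.0485 in fetal females (ratio of CPM, mean ± SD, n = 12 each). In adult females the ratio was 0.179 ± 0.0339, from 0.141 to 0.258, and in adult males 1.46 ± 0.394, from 0.838 to 2.07. The adult groups did not overlap, and fetal livers lay between them.

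Across adult females Alas2 and Beta-s rose together (Pearson r = 0.854, p = 0.00029, adjusted p = 0.000507; Spearman rho = 0.853, p = 0.00072, adjusted p = 0.00096; permutation tests, n = 12), and r was 0.632 without the 2 livers farthest from the median of Beta-s. Across adult males r was -0.20 (p = 0.53, adjusted p = 0.53) and rho -0.10 (p = 0.749, adjusted p = 0.749; permutation tests, n = 12), and r was -0.39 without 2. In fetal males r was 0.893 (adjusted p = 0.00016), rho 0.909 (adjusted p = 0.00016) and r without 2 livers 0.836. In fetal females r was 0.852 (adjusted p = 0.000507), rho 0.916 (adjusted p = 0.00016) and r without 2 livers 0.729. All were permutation tests over 12 livers, 4 relations in the family, added after the values were seen. Whether r differed between the genders was not tested.

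**Figure D3:**
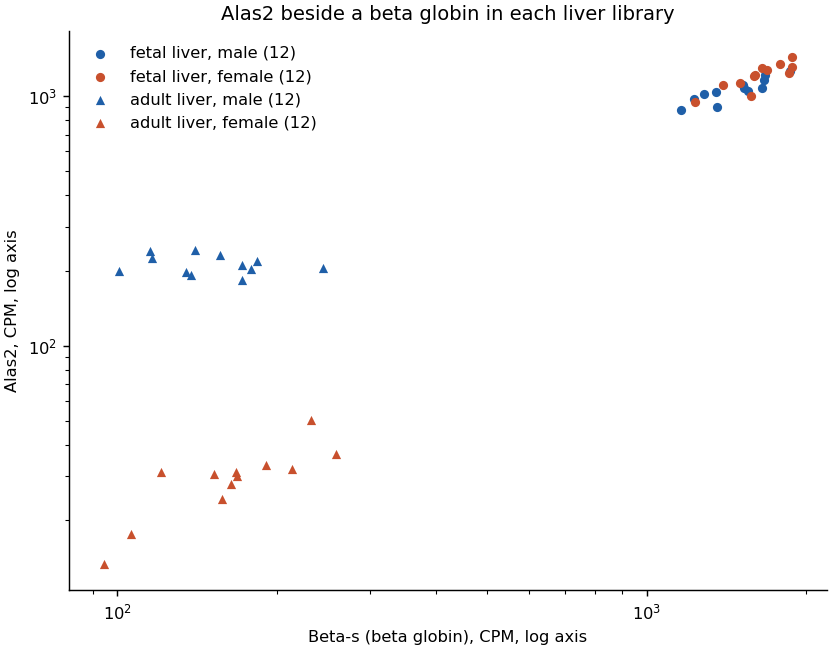
Alas2 against the beta globin Beta-s in each liver library (CPM, both axes log), circles for fetal and triangles for adult liver, blue for males and orange for females, 12 libraries a group. The genders overlap along the Beta-s axis in adult liver, while Alas2 lies at 184 to 242 CPM in males and 13.3 to 50.6 CPM in females.

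Other measures moved with gender in adult liver too. Alignments to more than 1 place numbered 1.09 to 2.26 per gene read in males and 0.703 to 1.17 in females, and their part in the Alas2 difference was not tested. Alas2 shares 311 exon bases, 12.9% of its full-set exon length of 2403 bases, with Apex2 on the opposite strand. Whether counting used strand is not given in the sources used here. Apex2 averaged 9.24 CPM in adult males and 6.21 CPM in adult females, below the Alas2 mean of either gender. Ppox likewise shares exon bases with B4galt3, at 10.7 and 9.94 CPM, and Cpox with Gpr15, which had at most 1 read in any adult liver.

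A pair of transporters of the pathway shared the adult direction of Alas2. Abcb10, a mitochondrial inner membrane transporter needed for heme formation in red cell precursors, averaged 93.5 CPM in males (79.8 to 112 CPM) and 50.0 CPM in females (41.1 to 64.04 CPM; log2 0.88, SE 0.0724). Abcg2, an exporter of porphyrins and heme, averaged 219 CPM in males (160 to 278 CPM) and 83.6 CPM in females (47.1 to 99.9 CPM; log2 1.37, SE 0.0886). In both genes the genders did not overlap.

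Abcb10 was the 1 of 16 carriers and iron-sulfur partners past the thresholds in adult liver. Of all 10372 genes tested there, 9.49% passed, with 312 higher and 672 lower in males. The counts of each list are given beside that share and are not read as results. Among 11 heme breakdown, export and binding genes, Abcg2 was higher in males and Mfsd7c, listed today as Flvcr2, lower (4.27 against 8.99 CPM). No erythroid regulator of the 5 tested passed, and of 8 hepatic regulators of Alas1 the receptor Nr1i3 (167 against 263 CPM) and the coactivator Ppargc1a (9.55 against 14.6 CPM) were lower in males. Macrophage markers were lower in males in 7 of 11 genes, with sums of 500 to 831 CPM in males and 667 to 1416 CPM in females. Hepatocyte markers summed to 71980 to 81150 CPM in males and 86130 to 106100 CPM in females. Their part in the member values was not tested.

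The gender comparison in fetal liver was not among the values named in the rule that chose the genes, and no member passed both thresholds (edgeR quasi-likelihood test, 0 of 8, beside 4.64% of 12930 genes). Every member had overlapping ranges. Urod had the largest difference, with 230 to 320 CPM in males (median 255) and 255 to 368 CPM in females (median 326), a log2 (male/female) of -0.24 (SE 0.0747, adjusted p = 0.0182 by edgeR). Ppox (-0.19, SE 0.0758, adjusted p = 0.0592), Alad (-0.18, SE 0.0762, adjusted p = 0.0743) and Uros (-0.16, SE 0.0735, adjusted p = 0.0949) were also under 0.1 by edgeR, all short of the fold threshold.

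The remaining fetal differences were smaller or less certain. Alas2 was at -0.15 (SE 0.0689, adjusted p = 0.107 by edgeR), with 877 to 1262 CPM in males and 945 to 1436 CPM in females. Alas1 (-0.06, adjusted p = 0.373), Fech (0.05, adjusted p = 0.579) and Cpox (0.00, adjusted p = 0.981) had intervals of -0.14 to 0.03, -0.08 to 0.18 and -0.13 to 0.13. An adjusted p under 0.1 at any fold was reached by 4 of the 8 members and by 37.2% of all genes tested, an unadjusted p under 0.05 by 5 members and by 40.5% of genes, and DESeq2 called 0 members.

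These fetal values moved with a property of the libraries. Reads outside genes made up 39.9% to 49.0% in fetal males and 34.1% to 38.1% in fetal females, without overlap, so gender and this share cannot be told apart. With the share on genes as a covariate, log2 values were 0.03 for Urod, 0.16 for Ppox, 0.15 for Alad, 0.08 for Uros and 0.16 for Alas2, with adjusted p from 0.972 to 0.998 by edgeR, and the contrast called 7 genes in all in place of 600.

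No carrier, iron-sulfur partner, erythroid regulator or erythroid marker passed the thresholds by gender in fetal liver (0 of 16, 0 of 10 and 0 of 11 tested), and no heme breakdown, export or binding gene did (0 of 11). Of 8 hepatic regulators of Alas1, Foxo1, an insulin-responsive factor, was higher in males (25.6 against 16.2 CPM, log2 0.69, SE 0.153, adjusted p = 0.00126 by edgeR). Among all 12930 genes tested, 4.64% passed. The Foxo1 difference too cannot be told apart from the share of reads outside genes, which did not overlap between the fetal genders. Whether the gender difference of a member differed between fetal and adult liver was not tested.

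**Figure D4:**
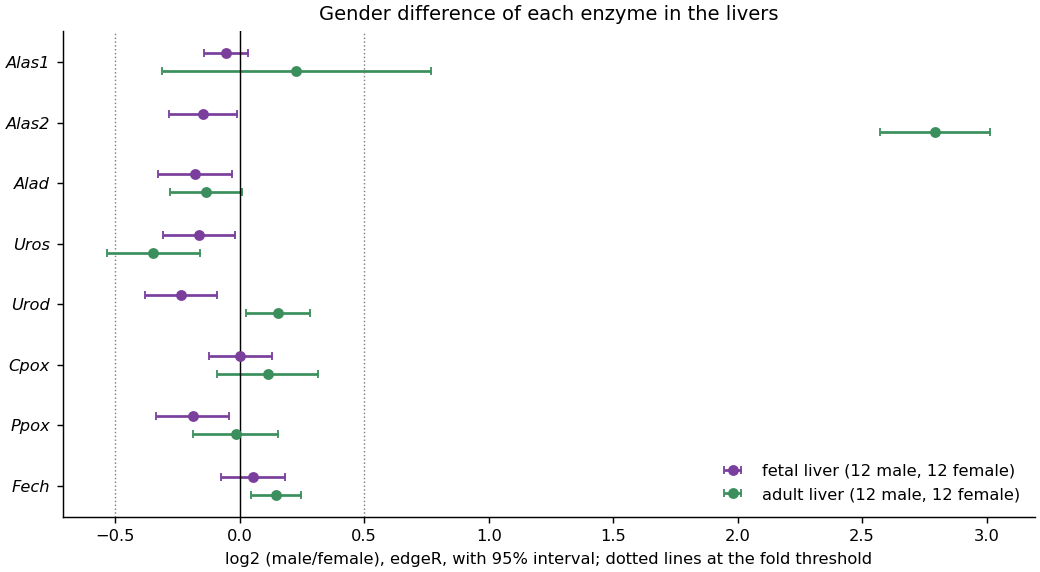
Fitted log2 (male/female) of each enzyme in fetal (purple) and adult (green) liver with its 95% interval; the black line marks no difference and the dotted lines the fold threshold of 0.5. Adult Alas2 at 2.79 lies apart from the other values, which run from -0.35 to 0.23.

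In embryos 6 of the 8 members passed the filter on low counts, Alas2 and Cpox not, and none of the 6 was called by gender (edgeR, beside 0.264% of 9087 genes). Their intervals were wide. Alas1 had a log2 of -0.33 (95% interval -0.83 to 0.17), Urod 0.00 (-0.46 to 0.47) and Alad 0.14 (-0.56 to 0.84), while Ppox reached from -3.71 to 2.18. An unadjusted p under 0.05 was reached by 0 of the 6 members and 3.88% of genes, and DESeq2 called 0 members. Cpox ran from 2 to 90 reads in male and from 1 to 12 reads in female embryos.

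In ES lines 7 members passed the filter and none was called (edgeR, beside 9.5% of 12678 genes). Uros had the largest value, 0.25 (SE 0.195, adjusted p = 0.476 by edgeR), with 13.2 and 12.7 CPM in the male and 9.38 and 12.4 CPM in the female lines. The other 6 lay between -0.13 and 0.02. An unadjusted p under 0.05 was reached by 0 of the 7 members and 24.4% of genes, and DESeq2 called 0 members. With 2 lines a gender, leaving out ES line 3 or ES line 4 gave 0 calls among all genes, and leaving out line 1 or line 2 gave 2606 and 3070.

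Within gender, each member's log2 CPM was compared with the mean log2 CPM of the erythroid markers (permutation tests, n = 12 a group, p-values adjusted over 32 relations). In 14 of the 16 fetal relations r was positive and passed an adjusted p of 0.05, which took in all members but Alas1 in both genders. A positive r with an unadjusted p under 0.05 was reached by 7 of the 8 members in each gender, beside 6.98% of 9579 genes at 10 CPM or more in males and 17% of 9634 in females. Cpox had r = 0.896 in males (adjusted p = 0.00048) and 0.932 in females (adjusted p = 0.00048), and Urod 0.868 (adjusted p = 0.00192) and 0.944 (adjusted p = 0.00032), all by permutation. Alas2 was the lowest of the 7 in males, with r = 0.737 (adjusted p = 0.015, permutation) and rho = 0.643 (adjusted p = 0.0593, permutation), and reached r = 0.935 (adjusted p = 0.00032, permutation) and rho = 0.881 in females. By rank, 13 of the 14 passed. Without the 2 libraries farthest from the median marker level, r of these 14 ran from 0.567 to 0.887.

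Alas1 went the other way in fetal liver. Its r was -0.61 in males (p = 0.0363, adjusted p = 0.0726) and -0.51 in females (p = 0.0941, adjusted p = 0.177), with rho of -0.56 (adjusted p = 0.113) and -0.64 (adjusted p = 0.0609), permutation tests over 12 livers each. Without 2 libraries r was -0.88 and -0.68. Neither passed.

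In adult liver none of 16 relations passed on r. Values ran from -0.42 for Uros in females to 0.623 for Alad in males (p = 0.0335, adjusted p = 0.0714, permutation, n = 12). By rank, Alad in males had rho = 0.713 (adjusted p = 0.0285, permutation, n = 12), and its r was 0.543 without 2 libraries. The adult marker mean rests on few reads, since most of its genes were near 0.

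Among themselves, and with gender means subtracted, the 7 members other than Alas1 gave 21 pairs in fetal liver, all with positive r between 0.799 and 0.934 over 24 libraries. All 7 pairs with Alas1 were negative, from -0.56 to -0.36. In adult liver 13 of the 21 pairs were positive, from -0.44 to 0.645. These are descriptions: the libraries share depth, composition and scaling.

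Genes most like Alas2 over the 24 fetal livers, by r of log2 CPM with gender means subtracted among 9619 genes at 10 CPM or more, included Prdx2, a peroxidase of red cells (r = 0.945), Car2, a carbonic anhydrase (0.944), and Rhd, a red cell membrane protein (0.940). For Alas1 over the 24 adult livers, among 8791 genes, they were Smcr8 (0.838), Gm14420 (0.809), C4a, a complement component (0.794), Plin4, a lipid droplet protein (0.747), and Txndc11 (0.743).

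**Figure D5:**
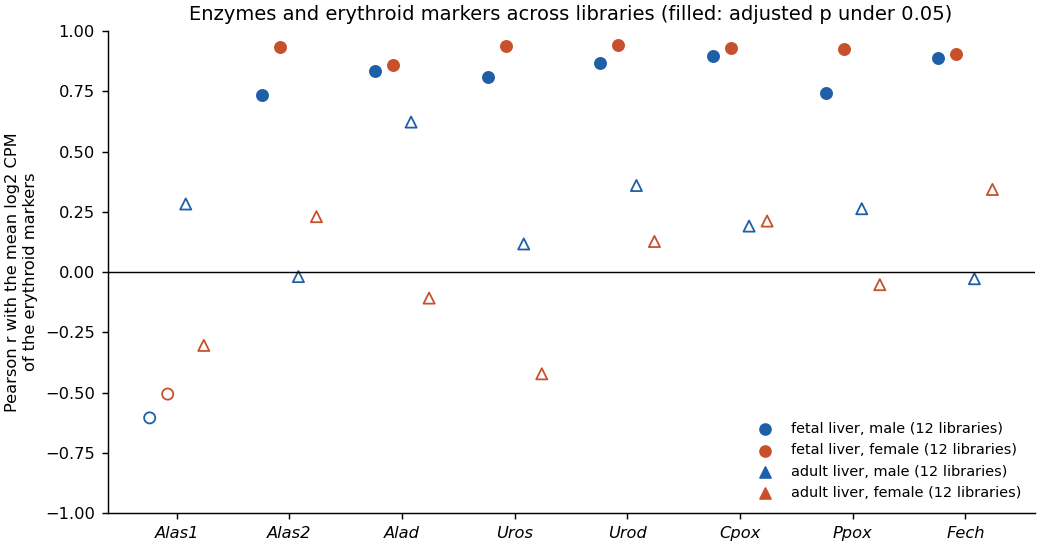
Pearson r of each enzyme with the mean log2 CPM of the erythroid markers, in 12 libraries a group; circles are fetal and triangles adult liver, blue males and orange females, filled where the adjusted permutation p is under 0.05. In fetal liver the 14 points other than Alas1 lie between 0.737 and 0.944 and are filled, Alas1 lies at -0.61 and -0.51, and no adult point is filled.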

How the data were processed

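The deposited files hold raw read counts per gene; the authors aligned reads with TopHat2 2.0.4 (Bowtie2 2.1.0, SAMtools 0.1.18) to mm10, removed duplicates with Picard, which can lower the counts of abundant transcripts, and counted with HTSeq. The 5 rows that name no gene were left out, and no 2 libraries were identical. Members, gene lists and tests were chosen with earlier results of these data known. Groups came from the stage and gender labels.

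CPM used TMM factors over all 64 libraries. Levels per kb used exon lengths from the GENCODE M21 basic set, while overlaps used the full set. Promoters came from RefSeq (GRCm38.p6, with no Fech entry used here). Contrasts were fitted within a stage, and adult against fetal liver with gender as a term, by edgeR 4.0.16 (quasi-likelihood, robust, filterByExpr, Benjamini-Hochberg), with calls at an adjusted p under 0.1 and an absolute log2 over 0.5, the study's thresholds; intervals are 95%. DESeq2 1.42.0, other scalings, no filter, a covariate and left-out libraries were alternatives. Correlations used log2(CPM + 0.5) and 100000 resamples (10000 for the share of all genes, added after the values were seen). Named were all members, at most 4 genes per list and contrast, called or with the largest log2, and the 5 genes most like Alas2 and Alas1 by r (members left out), some of them not reported here. The edgeR gender fit within a stage and the permutation test of a correlation were tested on drawn data with known answers. The other methods were not. One step of the pathway is not analysed here.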

Additional observations from a re-analysis of the deposited data

Results flagged for a closer look

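In 6 cases a single embryo stood apart from the other embryos of its gender for a member: its gap to the nearest, divided by the group's range, exceeded Dixon's 95% critical value. Chance flags about 1 in 20 groups only where values are normally distributed. In the 16 groups of embryos tested, several hold zeros or low counts, so that rate does not apply. Nothing is read from the number of flags. A pair of these concern Alas2 at a handful of reads, embryo 10 (5 reads, 0.84 CPM, all other females at 0; ratio 1) and embryo 4 (4 reads, 0.451 CPM; ratio 0.688). Embryo 12 was highest of the females for Uros (35.7 CPM, next 14.4 CPM; ratio 0.692) and for Cpox (12 reads, 1.93 CPM; ratio 0.715). Embryo 9 was highest of the females for Alad (82.5 CPM, next 48.2 CPM; ratio 0.662), and embryo 2 highest of the males for Ppox (7.76 CPM, next 2.82 CPM; ratio 0.636).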

How the results depend on the processing

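No member was called by gender in fetal liver, embryos or ES lines under DESeq2, other size factors, no filter on low counts or the share covariate. In adult liver Alas2 was past the thresholds under each of these and without the 7 shallow livers, a description as the gene was chosen with that value known. Without the fold threshold 4 members were called in fetal and 4 in adult liver, beside 37.2% and 32.8% of all genes. With the share of reads on genes as a covariate, fetal log2 values turned to 0.16 for Alas2, 0.15 for Alad, 0.081 for Uros, 0.025 for Urod and 0.16 for Ppox. Urod in embryos turned to -0.0036 without the filter and to -0.046 with the covariate. Leaving out each ES line in turn, where the lone line of a gender is assumed to vary like the others, gave -0.21 to 0.044 for Alas1, -0.23 to 0.24 for Alad, -0.027 to 0.063 for Urod, -0.054 to 0.043 for Cpox and -0.33 to 0.060 for Ppox. Correlations with the erythroid markers in adult males turned for Uros to -0.025 (library totals), -0.40 (shallow livers left out) and -0.091 (share partialled out) and for Ppox to -0.31 (shallow livers left out) and -0.042 (share partialled out), and for Ppox in adult females to 0.021 (share partialled out). With library totals Alas1 in fetal females passed (r = -0.71, adjusted p = 0.0195, permutation). The cause was not tested.

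Counts over all genes moved by over 1.5 times in fetal liver from 600 to 1057 (no filter), 7 (covariate) and 4807 (no fold threshold), in embryos from 24 to 80 (DESeq2), in ES lines from 1205 to 555 (covariate) and in adult liver from 984 to 1518 (no filter) and 3400 (no fold threshold). No paired analysis was possible because the genders of a stage share no replicate numbers, and a number shared across stages marks no shared animal. With 1567583 to 4757610 reads on genes, an adult library's floor of 3 reads stood at 0.631 to 1.91 CPM before scaling factors.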

Other observations

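In the ES lines Mfsd7b, listed today as the heme exporter Flvcr1, was lower in males (19.6 against 30.2 CPM, log2 -0.62, SE 0.148, adjusted p = 0.0785 by edgeR), Spna1, an erythroid spectrin, higher (24.5 against 12.1 CPM, log2 1.03, SE 0.259, adjusted p = 0.0874 by edgeR), and Cd68, a lysosomal protein of macrophages, higher (21.1 against 10.7 CPM, log2 0.99, SE 0.249, adjusted p = 0.0877 by edgeR). Each ES value rests on 2 lines a gender.

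Gata1, the factor named for the GATA letters and known from red cell precursors, was listed at 32.9 to 196 CPM in the 12 embryos (median 92.0 CPM), a range that overlapped the fetal livers at 63.8 to 97.7 CPM, while Alas2 had at most 5 reads there and the membrane markers Slc4a1, Epb4.2, Ermap and Rhag together at most 1. ES lines had Gata1 at 0.0728 to 0.846 CPM. The gene lies on chromosome X, and embryos averaged 70.4 CPM in males and 139 CPM in females. That difference did not pass the thresholds (log2 -0.97, SE 0.310, adjusted p = 0.576 by edgeR). The embryo values come from the amplified protocol, and Gata1 was singled out after its values were seen.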
